A study of Mus musculus with 13 samples.

Results

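The genes of the proteasome were compared across 6 leukocyte populations of the mouse spleen. Members were all genes whose annotated symbol starts with Psma, Psmb, Psmc, Psmd or Psme followed by a number, and each was represented by its probe set with the highest mean signal among those annotated to 1 gene. This gave 44 of the 18194 genes with such a probe set. A gene was tested if every replicate of any 1 population had a signal of 50 or more, which 42 members and 9380 genes in all met. The other two, Psma8 (an alpha subunit known from testis) and Psmb11 (the catalytic subunit of the thymoproteasome), never exceeded signals of 54.5 and 16.4 and are described by these values only. Psmc3ip and Psme3ip1 match the symbol pattern but encode no subunit, and they were kept among the 42 as the rule has it.

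The proteasome degrades ubiquitin-tagged proteins. Its 20S core is built from rings of alpha and beta subunits, of which Psmb5, Psmb6 and Psmb7 carry the active sites, and the 19S cap recognises, unfolds and feeds the substrates. In cells of the immune system and after interferon-gamma, Psmb8, Psmb9 and Psmb10 can replace Psmb5, Psmb6 and Psmb7 to form the immunoproteasome, and the PA28 activator of Psme1 and Psme2 can bind the core. Both favour peptides that are loaded on MHC class I, which CD8α conventional dendritic cells (cDCs) are known to present to CD8 T cells, including peptides from captured antigen.

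The 13 arrays were Affymetrix Mouse Genome 430 2.0 arrays of RNA amplified in 2 rounds. B cells had 3 arrays, and plasmacytoid dendritic cells (pDCs), both cDC subsets (CD8α and CD11b), CD8 T cells and NK cells had 2 each. All cells came from the spleens of untreated wild-type C57BL/6 mice and were sorted by surface markers after digestion with collagenase. Each DC array pooled 10 to 15 mice, each NK array 6 to 10 and the B cell arrays 3, 2 and 1, while each CD8 T cell array came from 1 mouse. An age of 6 to 8 weeks was given for 1 CD8α cDC array and both CD8 T cell arrays, and of 6 weeks for B cell replicates 2 and 3. These replicates 2 and 3 are labelled follicular B lymphocytes and replicate 1 B lymphocytes. By the study's methods, the duplicates of DCs and NK cells came from 2 independent sorting experiments, and B and CD8 T cells from others. Signals were the deposited MAS5 intensities, scaled to a target of 100 on each array, and differences are on the log2 scale of signals floored at 20.

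Each population carried its own markers, with summed signals of 6627 to 6661 for the CD8α cDC markers in CD8α cDCs, 4570 to 4950 for CD11b cDC markers in CD11b cDCs and 14155 to 16976 for pDC markers in pDCs. Some markers were also found elsewhere. CD8α cDC markers summed to 1333 to 1466 in CD11b cDCs and 1047 to 1109 in CD8 T cells. CD11b cDC markers reached 952 to 3081 in B cells and 2026 to 2037 in CD8 T cells. NK markers were at 2629 to 2817 in pDCs, 2231 to 2464 in CD11b cDCs and 5204 to 7326 in CD8 T cells. Plasma cell markers summed to 1390 to 1872 in pDCs. T cell markers summed to 1125 to 1365 in pDCs, of which Cd8b1 alone made up 1294.8 and 1088.1, while Cd3d, Cd3e, Cd3g, Lat and Trat1 were at 35.3 or less there. Monocyte, macrophage and neutrophil markers summed to 5292 to 6336 in CD11b cDCs, 1568 to 1683 in CD8α cDCs, 981 to 996 in pDCs and 65 to 1014 in lymphocytes. All 6 of these 9 markers that were tested were higher in DCs than in lymphocytes. Of those below the filter, S100a8 and S100a9 went the other way. They were highest in B cell replicate 1, at 437.8 and 307.7, and at most 32.6 and 29.3 in DC arrays. Marco was at most 15.0 in any array. The part of these markers in the differences between DCs and lymphocytes was not tested. Plasma cell markers ranged from 1574 to 10944 among the B cell arrays. In 3 arrays the sex of the cells went against the label. Both CD8 T cell arrays, labelled female, had Eif2s3y (a Y-linked gene) at 689.9 and 968.4 and Xist at 1.0 and 0.9, and B cell replicate 2, labelled male, had Xist at 4272 and Eif2s3y at 3.7. All 6 DC arrays had Xist and 6 of the 7 lymphocyte arrays had Eif2s3y, so sex and cell family cannot be told apart except through B cell replicate 2. The DC arrays were also scanned in another period than the lymphocyte arrays, which cannot be told apart from the family either. The 3′ to 5′ signal ratio of GAPDH was 23.88 and 11.21 in the NK arrays and 3.46 to 6.30 in all others, and its part in the NK results was not tested.

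The stretches just before the transcription start of 5 members are shown first, because Psmb9, Psmb8 and Psme1 had closely alike patterns across the 6 populations while the constitutive Psmb5 and Psmb6 differed less. They are RefSeq sequence of build GRCm38.p6, printed 5′ to 3′ on the strand of the gene. The alpha subunit Psma4 (Pearson's r = 0.93 over the 6 means) and the constitutive Psmb7 (r = 0.91) were also like Psmb9. Psma4 is not printed, and its window held the GC box only. Psmb7 had no promoter window. The immunosubunit Psmb10 (r = 0.35) is not printed, and its window held none of the motifs searched. Tap1 starts 225 bases from Psmb9 on the opposite strand, so the Psmb9 stretch holds all letters that lie between both genes. Tap1 encodes one chain of the transporter that carries peptides into the endoplasmic reticulum. Capitals mark letters that matched any of the motifs searched on both strands.
Psmb9 (chr17:34187331-34187555, minus strand): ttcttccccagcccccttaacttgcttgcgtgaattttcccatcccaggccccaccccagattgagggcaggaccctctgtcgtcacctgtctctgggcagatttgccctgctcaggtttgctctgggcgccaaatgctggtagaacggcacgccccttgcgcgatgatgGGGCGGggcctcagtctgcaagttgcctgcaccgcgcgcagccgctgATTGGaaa
Psmb8 (chr17:34197945-34198194, plus strand): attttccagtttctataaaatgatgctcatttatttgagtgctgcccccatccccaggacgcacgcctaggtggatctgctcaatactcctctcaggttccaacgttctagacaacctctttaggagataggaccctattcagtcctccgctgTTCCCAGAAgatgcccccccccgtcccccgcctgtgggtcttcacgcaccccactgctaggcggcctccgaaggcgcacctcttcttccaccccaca
Psme1 (chr14:55578244-55578493, plus strand): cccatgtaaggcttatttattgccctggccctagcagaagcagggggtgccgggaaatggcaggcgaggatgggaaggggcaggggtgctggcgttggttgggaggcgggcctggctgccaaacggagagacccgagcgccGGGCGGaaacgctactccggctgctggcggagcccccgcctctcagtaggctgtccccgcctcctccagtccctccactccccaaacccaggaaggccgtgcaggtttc
Psmb5 (chr14:54617996-54618245, minus strand): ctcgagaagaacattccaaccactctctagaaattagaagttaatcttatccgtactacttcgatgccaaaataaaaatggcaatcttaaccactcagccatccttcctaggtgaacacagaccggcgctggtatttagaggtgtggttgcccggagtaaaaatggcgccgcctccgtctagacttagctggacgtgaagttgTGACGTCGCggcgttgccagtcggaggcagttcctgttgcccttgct
Psmb6 (chr11:70525107-70525356, plus strand): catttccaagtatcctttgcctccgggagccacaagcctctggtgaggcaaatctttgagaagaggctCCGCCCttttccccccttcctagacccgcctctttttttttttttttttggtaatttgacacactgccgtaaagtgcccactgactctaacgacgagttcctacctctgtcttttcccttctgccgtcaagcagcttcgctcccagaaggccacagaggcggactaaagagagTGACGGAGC

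The motifs were searched in the 300-base window from 250 before to 50 after the start, of which 37 of 44 members and 32851 transcripts of 27025 genes had one. Shares of all were taken over windows. Those of members were taken over the 37 members, each counted if any of its windows matched, so the units differ. The interferon-stimulated response element was in 3.44% of all windows and in those of 4 members, Psmb3, Psmd4, Psmd9 and Psme1, the last at positions 9 to 18 after the start and so outside the stretch shown. The gamma-activated site TTCNNNGAA was in 8.30% of all windows and in those of Psmb8, at positions -97 to -89, and Psmd2 (5.41% of members). The antioxidant response element TGACNNNGC was in 12.4% of all windows and in those of 6 members (16.2%). Among them were Psmb5 at positions -47 to -39 and Psmb6 at positions -9 to -1. The GC box GGGCGG was in 35.7% of all windows and in those of 22 members (59.5%). The CCAAT box CCAAT was in 37.4% and in those of 16 members (43.2%). The NF-kappaB form GGGNNTTCC was in 5.82% of all windows and in that of Psmd11 (2.7% of members).

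The populations differed in 28 of the 42 members by limma's F test (66.7%), against 82.8% of all genes tested, and in 16 of 42 without the 3 arrays whose sex label was contradicted, against 68.3% of all genes. Both CD8 T cell arrays are among these 3, so that this fit covers the other 5 populations. The mean signal was highest in CD8α cDCs for 25 of the 42 members, against 18.7% of all genes. Of these 25 members, 7 were alpha subunits, 8 beta subunits including Psmb8 and Psmb9, 7 subunits of the 19S cap, and the others Psme1, Psme3 and Psmc3ip. The mean was lowest in CD8 T cells for 16 members (18.9% of all genes), in NK cells for 12 (16.9%) and in B cells for 7 (13.1%). Since the arrays measure RNA of sorted bulk cells, more cells with a transcript and more transcript per cell cannot be told apart.

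**Figure D1:**
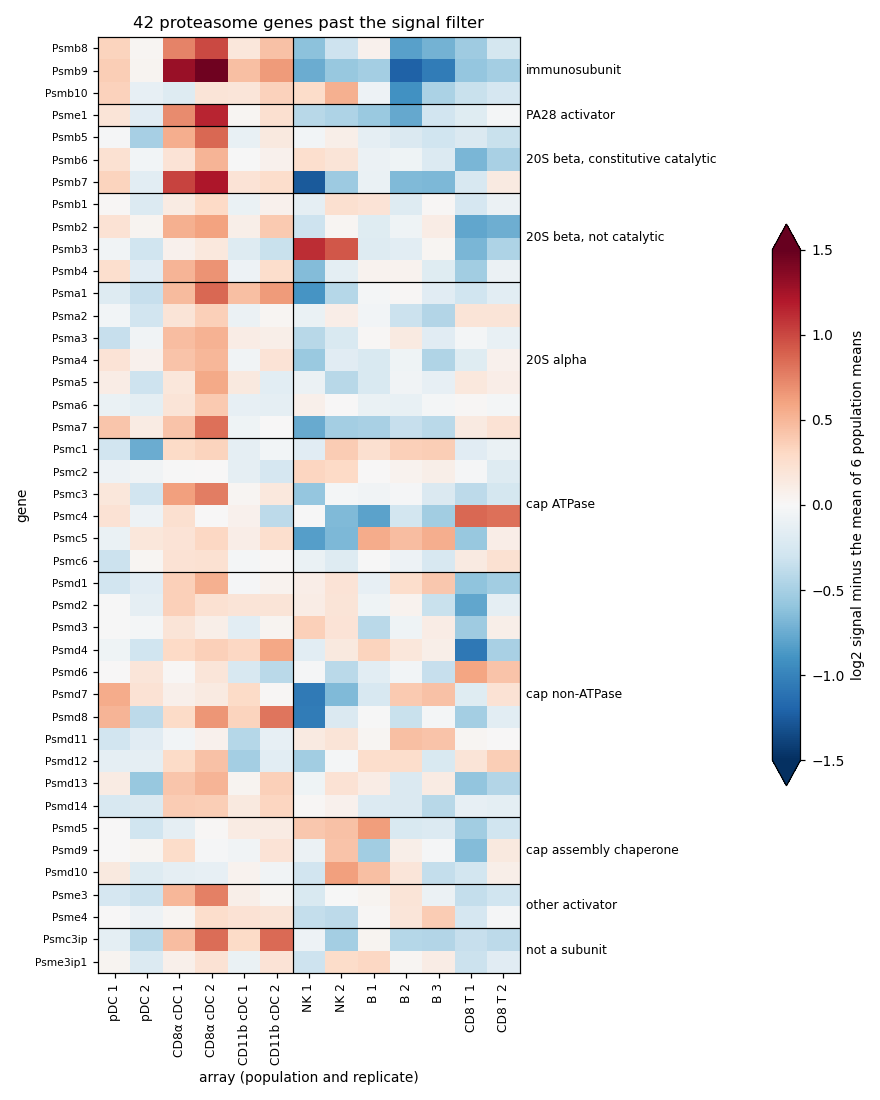
Log2 signal of 42 proteasome genes (rows, grouped by role) in 13 arrays (columns), minus the mean of the 6 population means, with red above and blue below it. Both CD8α cDC columns are red in most rows of the core, Psmb9 has the strongest colours, and Psmb3 is at its reddest in NK cells.

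Psmb9, the interferon-inducible replacement of Psmb6, differed most. Its signals were 5942 and 6668 in CD8α cDCs, 3322 and 3776 in CD11b cDCs and 3128 and 2500 in pDCs. They were 1443 and 1629 in NK cells, 1706, 1042 and 1169 in B cells, and 1615 and 1704 in CD8 T cells. Every DC array was above every lymphocyte array, which no other tested member showed, against 6.01% of all genes, and no member had all DC arrays below all lymphocyte arrays, against 5.74% of all genes. In the order of the means, CD8α cDCs exceeded CD11b cDCs by 0.83 (log2, SE 0.23, limma adjusted p = 0.0291) and pDCs exceeded CD8 T cells by 0.75 (adjusted p = 0.0228), while CD11b cDCs and pDCs, and the 3 lymphocyte populations among themselves, did not differ beyond their spread.

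Psmb8, which replaces Psmb5, followed the same order of DCs. Its signals were 3995 and 4733 in CD8α cDCs, 2682 and 3224 in CD11b cDCs, and 2997 and 2437 in pDCs. NK cells had 1555 and 1917, CD8 T cells 1648 and 1994, and B cells 2494, 1360 and 1463. B cell replicate 1 thus lay within the range of the pDC arrays and the other lymphocyte arrays lay below all DC arrays. No neighbouring populations in this order differed at the threshold. The gap between CD8α and CD11b cDCs was 0.56, with a 95% interval from -0.06 to 1.19.

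Psme1, the alpha subunit of PA28, was at 3536 and 4775 in CD8α cDCs, with 1923 to 2557 in the other 4 DC arrays and 1264 to 2110 in the lymphocyte arrays. CD8α cDCs exceeded CD11b cDCs by 0.79 (SE 0.22, limma adjusted p = 0.027), and no other neighbours in the order differed. Psme2, the partner of Psme1, had no probe set of its own and was therefore no member. The probe set it shares with Psme2b gave 3106 and 3296 in CD8α cDCs, 2594 and 2902 in CD11b cDCs, and 2484 and 1910 in pDCs. It gave 2378 and 2317 in CD8 T cells, 1098 and 1554 in NK cells, and 1838, 1668 and 1492 in B cells. Both CD8α cDC arrays were thus again the highest, while the CD8 T cell arrays lay within the range of the pDC arrays. It was described only by its levels, since a probe set of more than 1 gene was not tested.

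Psmb10, the replacement of Psmb7, had another pattern. Its signals were 1762 and 2102 in NK cells, 1640 and 1848 in CD11b cDCs, 1840 and 1331 in pDCs, and 1272 and 1663 in CD8α cDCs. CD8 T cells had 1147 and 1214, and B cells had 1379, 773.2 and 1045. The ranges of DCs and lymphocytes overlapped, and no neighbours in the order of the means differed. Against the other 5 populations, the difference was -0.58 in B cells (SE 0.18, limma adjusted p = 0.0195), 0.49 in NK cells (adjusted p = 0.0738) and 0.00 in CD8α cDCs (95% interval -0.46 to 0.47). The difference between DCs and lymphocytes was 0.25 (adjusted p = 0.172, 95% interval -0.09 to 0.59).

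**Figure D2:**
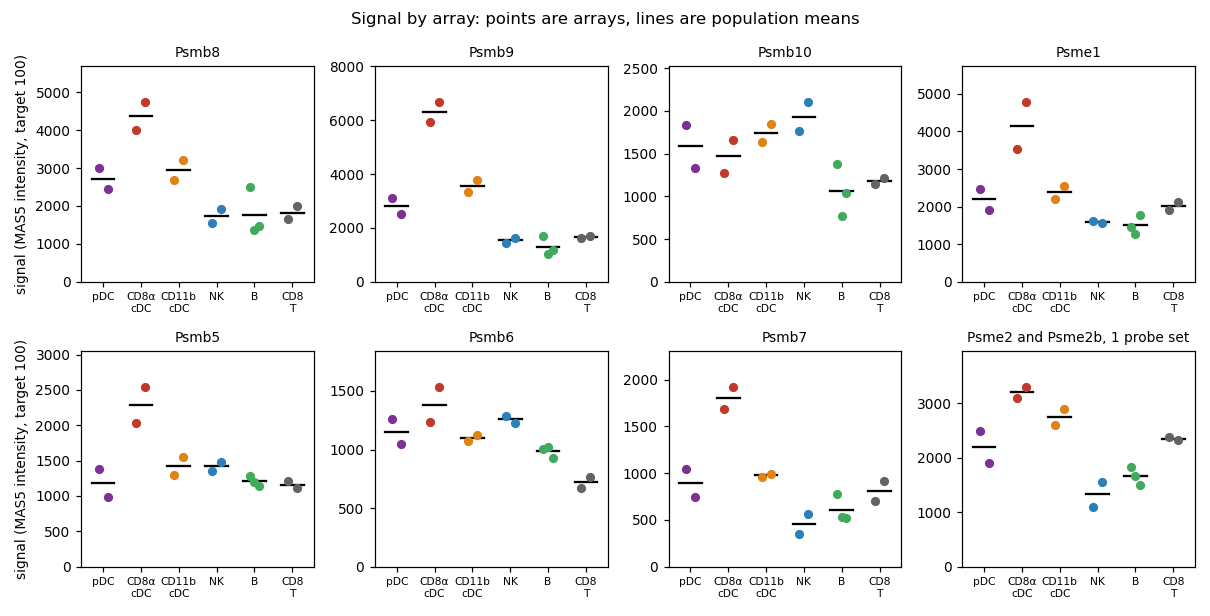
Signal (MAS5 intensity, linear axis from 0) of the immunosubunits and PA28 subunits and of the constitutive catalytic subunits in the 6 populations, with points for arrays and lines for means. The CD8α cDC points are the highest for Psmb8, Psmb9, Psme1, Psmb5, Psmb7 and the Psme2 probe set, but not for Psmb10.

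The constitutive catalytic subunits were all highest on average in CD8α cDCs. Psmb5, which carries the chymotrypsin-like site, had 2038 and 2539 there, 991.3 to 1550 in the other 4 DC arrays and 1109 to 1486 in the lymphocyte arrays. Both CD8α cDC arrays were above all others, and the gap to the next population, NK cells, was 0.68 (limma adjusted p = 0.016). No other neighbours differed.

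Psmb7, which carries the trypsin-like site, had 1681 and 1919 in CD8α cDCs, 957.3 and 995.8 in CD11b cDCs, 1045 and 745.5 in pDCs, and 705.5 and 914.5 in CD8 T cells. It had 778.1, 526.3 and 520.0 in B cells and 345.7 and 568.0 in NK cells. The highest and lowest population means were 2.02 apart, against 2.30 for Psmb9, although no step between neighbours passed the threshold. The step from CD8α to CD11b cDCs was 0.88 (adjusted p = 0.0568).

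Psmb6, which carries the caspase-like site, had overlapping signals in the DC and NK arrays. Its signals were 1236 and 1533 in CD8α cDCs and 1045 to 1263 in the other DC arrays, with 1286 and 1230 in NK cells and 930.8 to 1026 in B cells. CD8 T cells had 671.6 and 767.4, below all other arrays, and lay 0.46 below B cells (limma adjusted p = 0.0429).

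The ratio of an immunosubunit to its constitutive counterpart was read only as it changed between populations, since probe sets differ in affinity. The log2 ratio of Psmb9 to Psmb6 was 2.27 and 2.12 in CD8α cDCs, 1.63 and 1.75 in CD11b cDCs, and 1.31 and 1.26 in pDCs. CD8 T cells had 1.27 and 1.15, B cells 0.76, 0.02 and 0.33, and NK cells 0.17 and 0.41. The DC and lymphocyte arrays overlapped only between pDCs and CD8 T cells, and the mean of the DC populations was 1.10 higher. The ratio of Psmb8 to Psmb5 was 0.90 to 1.30 in the DC arrays and 0.18 to 0.96 in the lymphocyte arrays, with a mean difference of 0.59. Here B cell replicate 1, at 0.96, was the lymphocyte array within the DC range, and pDCs, not CD8α cDCs, had the highest mean. The ratio of Psmb10 to Psmb7 ran the other way. It was -0.40 and -0.21 in CD8α cDCs, 0.41 to 1.01 in all arrays of the other populations except NK cells, and 2.35 and 1.89 in NK cells, which left DCs 0.70 below lymphocytes on average (log2 difference -0.70). No test was made of these ratios.

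**Figure D3:**
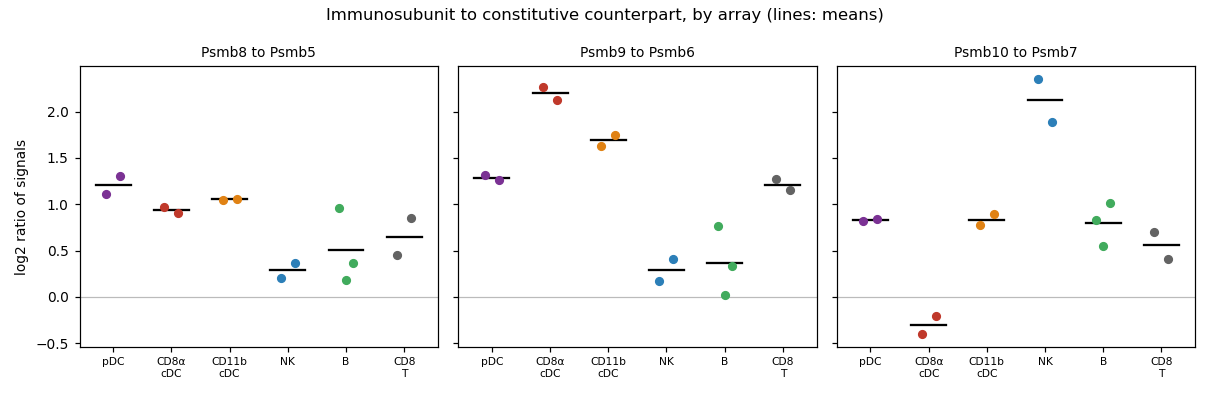
Log2 ratio of each immunosubunit signal to that of its constitutive counterpart in the 13 arrays, with lines for population means. The ratio of Psmb9 to Psmb6 is highest in CD8α cDCs, at 2.27 and 2.12, and that of Psmb10 to Psmb7 is lowest there, at -0.40 and -0.21, and highest in NK cells.

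The first comparison of the study's design asks how the DC subsets relate to the lymphocytes. Between the means of the 3 DC and the 3 lymphocyte populations, 20 of 42 members were higher in DCs (47.6%, against 31.3% of all genes) and 1 was lower (32.3% of all genes). The median difference was 0.26 over the members and -0.02 over all genes. The 3 members with the largest differences were Psmb9 at 1.42 (SE 0.13, 2.68-fold, limma adjusted p = 3.96e-06), Psmb7 at 0.95 (SE 0.16, 1.94-fold, adjusted p = 0.000414) and Psmb8 at 0.90 (SE 0.16, 1.86-fold, adjusted p = 0.000549). The constitutive Psmb5 and Psmb6 also rose, by 0.31 and 0.32 (adjusted p = 0.032 and 0.0136), and Psme1 rose by 0.72 (adjusted p = 0.000426). By role, the test was passed upwards by 2 of 3 immunosubunits, all 3 constitutive catalytic subunits, 2 of 4 other beta subunits, 4 of 7 alpha subunits, 2 of 6 ATPases and 4 of 11 other subunits of the 19S cap. None of the 3 assembly chaperones of the cap (Psmd5, Psmd9 and Psmd10) passed, at the unadjusted threshold either. The member that was lower in DCs was Psmd11, a scaffold subunit of the cap, with 1140 to 1603 in DC arrays and 1546 to 2104 in lymphocyte arrays (difference -0.33, SE 0.11, adjusted p = 0.0194). The 3 further probe sets of Psmd11 lay at -0.14, -0.46 and -0.38. Without the 3 arrays at odds with their sex label, which leaves NK and B cells as the lymphocytes and so makes another contrast, 15 members were higher and 3 lower, and 54.8% of all genes were called in either direction. With the set of sample names as a term, 8 members were higher and 1 lower, and the share of all genes is not reported here.

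CD8α cDCs against the mean of the other 5 populations gave 20 of 42 members higher (47.6%, against 23.4% of all genes) and 0 lower (26.6% of all genes). At an unadjusted p under 0.05, limma gave 24 higher and 0 lower, and with trended and robust variances 21 and 0 passed after adjustment. The shares of all genes called in these ways, and with an array left out, are not reported here. The median difference was 0.41, against -0.07 over all genes, and 40 of 42 estimates were above 0. The 3 largest differences were those of Psmb9 (1.65, SE 0.18, 3.14-fold, limma adjusted p = 2.71e-05), Psmb7 (1.33, SE 0.22, 2.52-fold, adjusted p = 0.000588) and Psme1 (1.12, SE 0.17, 2.17-fold, adjusted p = 0.000299). Psmb8 rose by 1.04, Psmb5 by 0.84 and Psmb6 by 0.43. Passing members were 6 of 7 alpha subunits, 7 of 10 beta subunits in all and 4 of 17 subunits of the 19S cap, with Psme1, Psme3 and Psmc3ip. For 18 of the 42 members, both CD8α cDC arrays lay above all 11 others, as they did for 11.6% of all genes. Without CD8α cDC replicate 2, 10 members passed, and 16 passed against the remaining 4 populations without the 3 arrays at odds with their sex label, where 42.6% of all genes were called in either direction. With quantile and with rank-invariant normalization, the median over the members was 0.28.

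**Figure D4:**
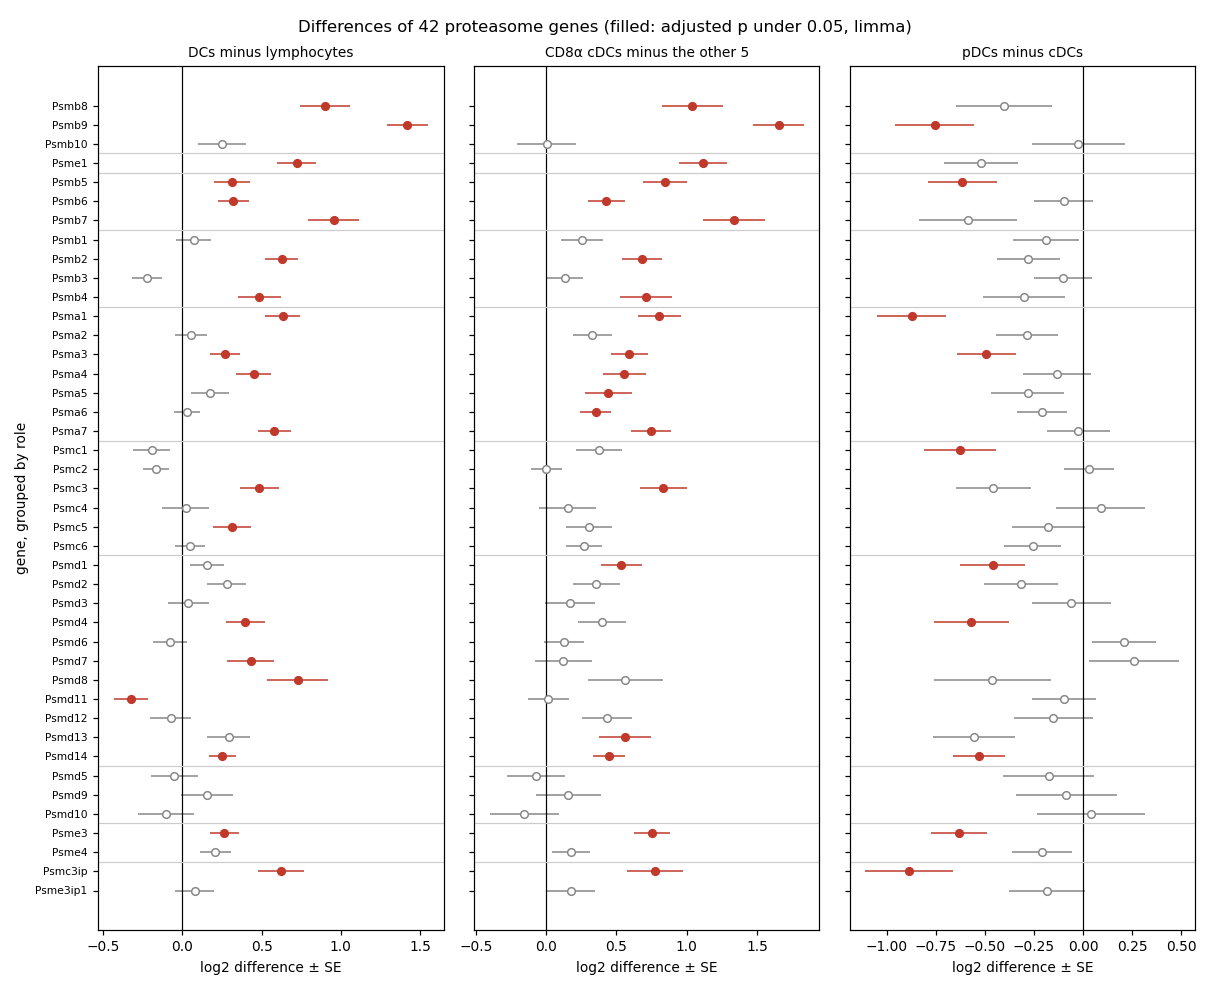
Log2 difference and SE of each of the 42 members (rows, grouped by role) for DCs minus lymphocytes, CD8α cDCs minus the other 5 populations and pDCs minus cDCs. Filled points have a limma adjusted p under 0.05, and they lie right of 0 for all but Psmd11 in the first panel, for all 20 in the second, and left of 0 for all 10 in the third.

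Within the DCs, pDCs compared with the average of CD8α and CD11b cDCs gave 10 of 42 members lower (23.8%, against 19.1% of all genes) and 0 higher (17.7% of all genes). At an unadjusted p under 0.05, limma gave 14 lower and 0 higher, and with trended and robust variances 12 and 0 passed. The shares of all genes called in these ways, and with an array left out, are not reported here. The largest differences were those of Psmc3ip (-0.89, limma adjusted p = 0.0094), Psma1 (-0.87, SE 0.18, adjusted p = 0.0024) and Psmb9 (-0.76, SE 0.20, adjusted p = 0.0128). Psma1, an alpha ring subunit, had 1190 and 1071 in pDCs, 1893 and 2467 in CD8α cDCs, and 1855 and 2111 in CD11b cDCs. Psmb5 fell by 0.62 (adjusted p = 0.0173). Psmb8, Psmb10 and Psmb6 gave -0.40, -0.02 and -0.10 and did not pass. In the fit of the 6 DC arrays alone, 10 members were also lower and 0 higher. The count was 4 without pDC replicate 2, and 6 without CD8α cDC replicate 2 or CD11b cDC replicate 2.

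CD8α against CD11b cDCs gave 5 of 42 members higher (11.9%, against 8.96% of all genes) and 0 lower (10.6% of all genes). These were Psmb9 (0.83, 1.78-fold), Psme1 (0.79), Psmb5 (0.68), Psma7 (0.65) and Psme3 (0.57), the last a subunit of another activator, PA28 gamma. At an unadjusted p under 0.05, limma gave 13 higher and 0 lower, and with trended and robust variances 8 and 0 passed. The shares of all genes called in these ways, with scan day as a term or with an array left out, are not reported here. The count was 6 in the fit of the 6 DC arrays alone, where 24.3% of all genes were called in either direction. It was 2 without the 3 arrays at odds with their sex label (17.6% of all genes), which include none of these cells. It was 0 without CD8α cDC replicate 2, without either CD11b cDC replicate and with scan day as a term, 9 without either NK array and 8 without B cell replicate 1.

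Against the other 5 populations, pDCs gave 1 member, Psmc1, an ATPase, as lower (difference -0.62, SE 0.16, limma adjusted p = 0.011, against 21.6% of all genes) and 0 as higher (18.6% of all genes; 2 at an unadjusted p under 0.05, and 0 with trended and robust variances). Psmc1 was at 388.3 and 284.4 in pDCs and between 422.8 and 618.8 in all other arrays. Without pDC replicate 2 no member passed, and without replicate 1 there were 3 lower, as there were without B cell replicate 1, and 2 without CD8α cDC replicate 1 or NK replicate 1. CD11b cDCs gave 4 higher (18.4% of all genes) and 0 lower (19.0%, with 4 lower at an unadjusted p under 0.05 and 2 lower with trended and robust variances). For pDCs and CD11b cDCs, the shares of all genes at the unadjusted threshold, with these variances or with an array left out are not reported here. The 4 were Psmc3ip (0.68), Psmb9 (0.66), Psma1 (0.65) and Psmd4 (0.53), and without CD11b cDC replicate 2 none passed, or 2 without replicate 1.

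NK cells gave 2 members higher (4.76%, against 25.4% of all genes) and 11 lower (26.2%, near the 24.5% of all genes). Psmb3, a beta subunit without an active site, was at 4615 and 4090 in NK cells and between 1331 and 2392 in all other arrays, with a difference of 1.22 (SE 0.13, limma adjusted p = 2.38e-05). Psmc2, an ATPase of the cap, was the other higher member, at 2815 and 2762 against 1897 to 2398 (difference 0.37). The dimmer probe sets of both genes were not read in this comparison. Psmb7 (-1.09), Psmd7 (-1.03) and Psmc5 (-0.91) were the lowest against the rest. Psmd7, the inactive partner of the deubiquitinase of the cap, was at 95.4 and 126.2 in NK cells and between 168.3 and 294.4 elsewhere. Psmc5, an ATPase, was at 234.8 and 261.6 in NK cells, 577.6 to 612.5 in B cells, and 282.9 and 448.1 in CD8 T cells. The NK arrays are those with the high 3′ to 5′ ratios of GAPDH, 23.88 in replicate 1 and 11.21 in replicate 2, and without replicate 1 the members that passed were 1 higher and 5 lower.

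B cells gave 3 members higher (7.14%, against 22.6% of all genes) and 9 lower (21.4%, against 28.0% of all genes). All 3 immunosubunits and Psme1 were among the 9, with differences of -1.11 for Psmb9 (SE 0.15, limma adjusted p = 0.000163), -0.65 for Psme1, -0.58 for Psmb8 and -0.58 for Psmb10. The ATPase Psmc4 was also lower (-0.64). The 3 higher members were Psmc5 (0.63), Psmc1 (0.38) and Psmd11 (0.36). Replicate 1 had higher signals than the follicular replicates 2 and 3 for each immunosubunit, for Psmb8 2494 against 1360 and 1463. Replicate 1 was also the array with the highest plasma cell sum given above. Jchain was at 7865.6 there against 92.1 and 332.3, and Mzb1 at 2955.6 against 1264.1 and 1545.7. Sdc1 was lower there, at 82.8 against 181.5 and 240.7, and Prdm1 lay between the others at 39.6. The part of the plasma cell markers was not tested. Without B cell replicate 2, which is at odds with its sex label, 6 members passed, and without replicate 3, 5 passed.

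CD8 T cells gave 2 members higher (4.76%, against 23.0% of all genes) and 9 lower (21.4%, against 29.2% of all genes). Psmc4 was at 1257 and 1233 in CD8 T cells and between 397.5 and 821.1 elsewhere (difference 1.01, SE 0.20, limma adjusted p = 0.00181), and Psmd6, a subunit of the cap, was at 985.3 and 883.4 against 495.1 to 746.4 (difference 0.61). The dimmer probe sets of both genes were not read in this comparison. The largest falls were those of Psmd4, a ubiquitin receptor of the cap (-0.94, SE 0.17), Psmb2, a beta subunit without an active site (-0.91), and Psmb6 (-0.70). Psmb2 was at 298.5 and 307.0 in CD8 T cells and between 413.2 and 777.2 elsewhere. Psmd4 was at 490.5 and 735.4 in CD8 T cells and between 838.0 and 1542 elsewhere. Both CD8 T cell arrays went against their sex label. Without replicate 1, 6 members passed, and without the NK arrays, 17 passed.

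Across the 6 population means, the members most like Psmb9 were Psmb8 (Pearson's r = 0.99), Psme1 (0.96), Psma4 (0.93) and Psmb7 (0.91), and Psmb10 had 0.35. These are correlations over 6 points that share their arrays, given as a description. Psma7, an alpha subunit, was at 1090 and 1433 in CD8α cDCs, 481.3 and 568.5 in NK cells and 577.7 to 638.4 in B cells, and reached 0.79. Psmd11 and Psmd10 had -0.60 and -0.66.

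Some members had further probe sets past the filter. The second probe set of Psmb8, with a mean signal of 134.8, gave 0.50 for DCs against lymphocytes and 0.92 for CD8α cDCs against the rest, and that of Psma7 gave 0.82 and 0.96. The second probe set of Psmb3, with a mean signal of 514.4, gave 0.17 for DCs against lymphocytes where the first gave -0.22. In all, 8 of 20 members with more than 1 probe set had a dimmer one opposite in sign to the brightest for that comparison, namely Psma6, Psmb3, Psmc2, Psmd4, Psmd6, Psmd9, Psme3 and Psme4. For Psmd4, which was called as higher in DCs, the 3 probe sets gave 0.40, 0.55 and, for the dimmest, -0.04, and for Psmc2 the brighter gave -0.17 and the dimmer 0.06. For Psmd6 the brighter gave -0.08 and the dimmer, with a mean signal of 557.5, gave 0.44. Psmb9, Psmb7, Psmb5, Psmb6, Psmb10 and Psme1 each had 1 such probe set only.

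The other genes of peptide supply to MHC class I were taken from a list of 15, all of which were tested. In CD8α cDCs against the other 5 populations, 8 were higher and 0 lower, with a median of 0.45 (53.3% higher, against 23.4% of all genes, with 26.6% lower and a median of -0.07). In DCs against lymphocytes 7 were higher and 1 lower (46.7% and 6.67%, against 31.3% and 32.3% of all genes). Tap1, which shares its promoter stretch with Psmb9, was at 2198 and 2712 in CD8α cDCs, 966.7 to 1185 in the other DC arrays and 391.1 to 1066 in the lymphocyte arrays (difference of CD8α cDCs 1.49, SE 0.29, limma adjusted p = 0.00166). Tap1 thus separated CD8α cDCs from all others as Psmb9 did, but its other DC arrays overlapped those of lymphocytes. Pdia3, a member of the peptide-loading complex, was at 2220 and 2709 in CD8α cDCs and between 383.9 and 1205 elsewhere (difference 1.85, SE 0.24). Lap3, an aminopeptidase, was at 303.6 and 336.0 against 59.0 to 162.5 (difference 1.48). Nlrc5, the transactivator of class I genes, was highest in CD8 T cells, at 809.3 and 780.1, and was not called in CD8α cDCs (difference 0.32, adjusted p = 0.223).

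Of 19 partners of the proteasome, 15 were tested, and 5 were higher and 1 lower in CD8α cDCs against the rest (33.3% and 6.67%, against 23.4% and 26.6% of all genes), with a median of 0.34. Pomp, the chaperone that matures the 20S core, was at 2256 and 2407 in CD8α cDCs, 832.1 to 1681 in the other DC arrays and 442.4 to 779.7 in lymphocyte arrays, so that DC and lymphocyte arrays did not overlap (difference of CD8α cDCs 1.56, SE 0.20, limma adjusted p = 8.78e-05). Usp14, a deubiquitinase of the cap, rose by 0.98 (adjusted p = 0.0092), while Uchl5, another one, gave 0.44 (adjusted p = 0.122). Psmg2, a chaperone of the alpha ring, gave -0.08 and was highest in CD8 T cells, at 361.4 and 396.8. Of 9 tested ubiquitin shuttles and segregase genes out of 14, 2 were higher and 0 lower, and the share of 22.2% higher was near the 23.4% of all genes. Vcp, the segregase ATPase, was one of them (0.64), and Ubqln2, Ubqln4 and Nploc4 gave -0.40, -0.58 and -0.28 and did not pass.

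Targets of interferons did not move as one list. Of 14 tested interferon-gamma targets, 5 were higher and 6 lower in CD8α cDCs against the rest (35.7% and 42.9%, against 23.4% and 26.6% of all genes), with a median of -0.67. Cxcl9, a chemokine, was at 2965 and 3500 in CD8α cDCs and at most 332.0 elsewhere, and Irf8, a transcription factor of pDCs and CD8α cDCs, was at 9576 and 9918 there and 10515 and 9727 in pDCs. The guanylate-binding proteins Gbp7 and Gbp6 were at or below 18.6 in CD8α cDCs and reached 818.0 and 636.1 in CD8 T cells. Of 10 tested type I interferon targets, 1 was higher and 5 were lower in CD8α cDCs (10% and 50%, against 23.4% and 26.6% of all genes), with a median of -1.56. Rtp4, at or below 13.1 in CD8α cDCs, reached 976.8 and 1001 in CD11b cDCs, and Ifit3, Oasl2 and Ifit1 were at or below 27.7 in CD8α cDCs.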

How the data were processed

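RNA of sorted mouse spleen cells was measured on 13 arrays of 6 populations, grouped by their labels. The authors deposited MAS5 signal intensities, scaled to a target of 100 on each array, and the number of arrays limits the precision. Signals were floored at 20 and converted to log2, and a gene was tested if every replicate of any 1 population had a signal of 50 or more. Each gene was represented by its brightest probe set annotated to 1 gene (34958 of 45101 probe sets had 1 gene, 932 several and 9211 none). limma 3.58.1 in R 4.3.3 was fitted to all 9380 genes as a model of 6 means, which leaves 7 residual degrees of freedom, with Benjamini-Hochberg adjustment over all genes and a threshold of 0.05. Members and lists were chosen with earlier results of these data known. The text names Psmb5 to Psmb10, Psme1 and Psme2, the members with the widest range of population means, and those with the largest called difference in each comparison. Replicates were separate sorts by the study's methods.

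The fit was tested on simulated data with 200 of 9380 genes changed. For CD8α cDCs against the other populations it called 60.3% of genes changed by 1 on the log2 scale and 2.74% of those changed by 0.5, and for CD8α against CD11b cDCs 33.9% and 0%. In the data, 50.0% and 19.5% of all genes were called in these comparisons. The adjusted threshold was therefore stricter in the simulation, and its shares do not give the power in the data. Alternatives varied the normalization, floor, filter, variance model, probe set, replicate number, scan day, set of sample names and the arrays used.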

Additional observations from a re-analysis of the deposited data

How the results depend on the processing

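For the counts of members called and the ratio differences between DCs and lymphocytes, 229 values under an alternative stayed near the reported value and 51 did not. Near meant within 1.5 times for a count, and within the SD between replicates for a ratio difference. Leaving out the 3 arrays at odds with their sex label (chosen after seeing the data, as was the fit of the DC arrays alone) leaves 5 populations. The counts were then 16 for the F test (68.3% of all genes called) and 2 for CD8α against CD11b cDCs (17.6%). Against the rest, they were 2 for pDCs (36.7%), 2 for CD11b cDCs (30.1%) and 5 for B cells (40.8%). With the set of sample names as a term they were 9 for DCs against lymphocytes, 8 for CD8α against CD11b cDCs, and 3, 2, 6 and 4 for pDCs, CD11b cDCs, B cells and CD8 T cells against the rest. For CD8α against CD11b cDCs the count was 3 with quantile and 1 with rank-invariant normalization, 2 with no floor, 8 with trended and robust variances, 0 with scan day as a fixed term and 9 without the NK arrays. For pDCs against the rest it was 3 with a floor of 50, 3 with no filter, 4 with the mean over probe sets, 2 with scan day as a random block, 3 without the NK arrays and 4 without the CD8 T cell arrays. For CD11b cDCs it was 8 with a floor of 50, 7 with trended and robust variances, 2 with the mean over probe sets and 2 without the CD8 T cell arrays, and for CD8 T cells 17 without the NK arrays. With 1 array left out, the counts ran from 19 to 31 for the F test, 16 to 23 for DCs against lymphocytes, 4 to 11 for pDCs against cDCs, 0 to 9 for CD8α against CD11b cDCs, and, against the rest, 0 to 3 for pDCs, 10 to 22 for CD8α cDCs, 0 to 6 for CD11b cDCs, 6 to 16 for NK cells, 5 to 16 for B cells and 6 to 13 for CD8 T cells. An arm left with 1 array was assumed to vary like the others. Counts under an alternative or at an unadjusted p mostly stand without the share of all genes called. Such a count does not tell whether the members or all genes moved. The causes were not tested.

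The replicate number as a block gave 2 for CD8α against CD11b cDCs and 5 for B cells against the rest, and moved no other count by over 1.5 times. The methods name 2 sorting experiments for DCs and NK cells, but nothing ties a replicate number to one. The numbers were not taken as pairs, since deviations of same-numbered arrays correlated between -0.199 and 0.184 over 15 pairs of populations, at 0.178 between CD8α and CD11b cDCs, and at -0.159, -0.199 and -0.141 between pDCs and CD8α cDCs, CD11b cDCs and NK cells. Of the values for single members under an alternative, 693 kept their direction and side of the threshold, 55 no longer passed it, 18 newly passed it and 18, all of Psmb10 or Psmb6, changed sign. Psmb10 in DCs against lymphocytes became -0.09 with the set of sample names. With 1 array left out, Psmb6 in pDCs against cDCs ran from -0.24 to 0.04 (above 0 without pDC replicate 2), Psmb10 in pDCs against cDCs from -0.26 to 0.21, and Psmb10 in CD8α cDCs against the rest from -0.19 to 0.20. Psmb10 became 0.03 and 0.07 in pDCs against cDCs with quantile and rank-invariant normalization. In CD8α cDCs against the rest it became -0.13 with either normalization, -0.20 with the set of sample names, -0.07 without the CD8 T cell arrays and -0.12 without the 3 arrays.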
